A study of Mus musculus with 6 samples.

Results

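Tetraspanins are small membrane proteins that cross the membrane 4 times and gather integrins, immunoglobulin-family proteins, proteases and each other into patches of the cell surface. Members are known for roles in cell adhesion, in the loading of exosomes and, for TSPAN4, in building migrasomes, the vesicles that migrating cells leave on their retraction fibres. In the gut, several members are abundant in the surface epithelium and others belong to muscle, stroma or leukocytes. A set of 10 was examined in mouse proximal colon: Tspan4, Tspan1, Tspan3, Tspan8, Tspan13, Cd9, Cd63, Cd81, Cd82 and Cd151. Every probe set whose platform symbol was one of these names was taken. That gave 20 probe sets of 9 genes among 22626 probe sets and 12393 named genes in all, because no probe set in the table carries the single symbol Cd63, a tetraspanin of late endosomes and exosomes, which was not analysed here.

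Tspan4 was chosen by its low values on the heterozygous arrays of this same comparison, so its values are given as a description with no test. The other genes were listed as members of the same family, and their tests come from 1 limma model fitted to all 13576 probe sets that passed a filter on mean signal. Of the 20 probe sets, 19 passed that filter. The exception is a dim probe set of Cd151.

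The study compared wild-type mice with Mthfd1 heterozygotes, whose trapped allele came from the BayGenomics gene-trap resource. Mthfd1 encodes the trifunctional cytosolic enzyme that supplies folate-activated carbon units for purine and thymidylate synthesis. There were 3 arrays of each genotype, and all 6 mice were 8 weeks old and had eaten the AIN-93G control diet for 5 weeks from weaning. Total RNA came from the proximal end of the colon, opened and rinsed. The labels used here do not state its site in the gene or the strain and sex of the mice, and titles call the arrays biological replicates. In such bulk tissue, fewer cells of a type and less RNA per cell cannot be told apart.

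The arrays were alike in overall level. The trimmed mean signal was 500.2 on each, median signals ran from 156.80 to 168.20 array units, and correlations between arrays were 0.971 to 0.981 within genotypes and 0.973 to 0.982 between them. Mthfd1 itself followed the labels. Its probe set 1415916_a_at read 949.9, 838.6 and 881.4 on the wild-type arrays against 453.1, 509.6 and 549.4 on the heterozygous arrays, which is 56.6% of the wild-type mean, with a limma adjusted p of 0.125 (log2 change -0.80, SE 0.12). Its probe set 1415917_at stood at 49.0% of wild-type (limma adjusted p = 0.116), and neither probe set had groups that overlapped. Epithelial markers were strong in both genotypes: Epcam, an adhesion protein of all gut epithelium, read 12578.7 to 13634.2 on wild-type and 12802.5 to 13803.7 on heterozygous arrays. Ileal enterocyte markers were uneven within both genotypes, with sums of 13401.6 to 33463.0 on wild-type and 15559.3 to 29038.2 on heterozygous arrays. Of these, Fabp6 read 1316.8, 5661.9 and 93.5 on wild-type and 382.3, 5621.6 and 727.8 on heterozygous arrays, whereas Mep1a was level (log2 difference 0.01). The part of this unevenness in the values of other genes was not tested.

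Tspan4 has 1 probe set, 1448276_at, designed on the RefSeq transcript NM_053082. It read 316.2, 299.2 and 331.2 on the wild-type arrays. On the heterozygous arrays it read 136.7, 125.1 and 159.6. All 3 heterozygous values lay below all 3 wild-type values, with a wide gap between the groups and little spread inside either. The means were 316 ± 16.01 and 140.5 ± 17.6 (SD, n = 3 each), so the heterozygous level was 44.5% of wild-type. On the log2(signal + 16) scale the difference, heterozygous minus wild-type, was -1.09 (SE 0.14). Because this difference selected the gene, nothing is read from its size. No other probe set named Tspan4 exists on the array, so its own agreement between probe sets cannot be checked.

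No other tetraspanin of the set passed the test. Of 18 tested probe sets of the other 8 genes, 0 had a limma adjusted p under 0.05, and the smallest adjusted p was 0.912. The same count over all 13576 tested probe sets was also 0, which is 0%. At an unadjusted limma p under 0.05 the 8 genes again gave 0 probe sets, beside 771, or 5.68%, of all tested probe sets, and their smallest p was 0.116. None of the 18 had genotype groups that did not overlap, beside 1408, or 10.4%, of all tested probe sets. The log2 differences ran from -0.33 to 0.15, with 10 above 0 and 8 below. The brightest probe sets of the 8 genes split 5 above and 3 below 0 around a median of 0.04, and the median over all 8243 tested genes was 0.01.

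The intervals give the sizes that these arrays leave possible. For 7 of the 8 brightest probe sets, the exception being Tspan13, the 95% interval of the log2 difference lay inside -0.5 to 0.5. That was so for 12 of the 18 tested probe sets, and for 56.4% of all tested probe sets. The widest interval of the 18 belonged to a dim second probe set of Cd82. The number of arrays, 3 a genotype, limits the precision.

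**Figure D1:**
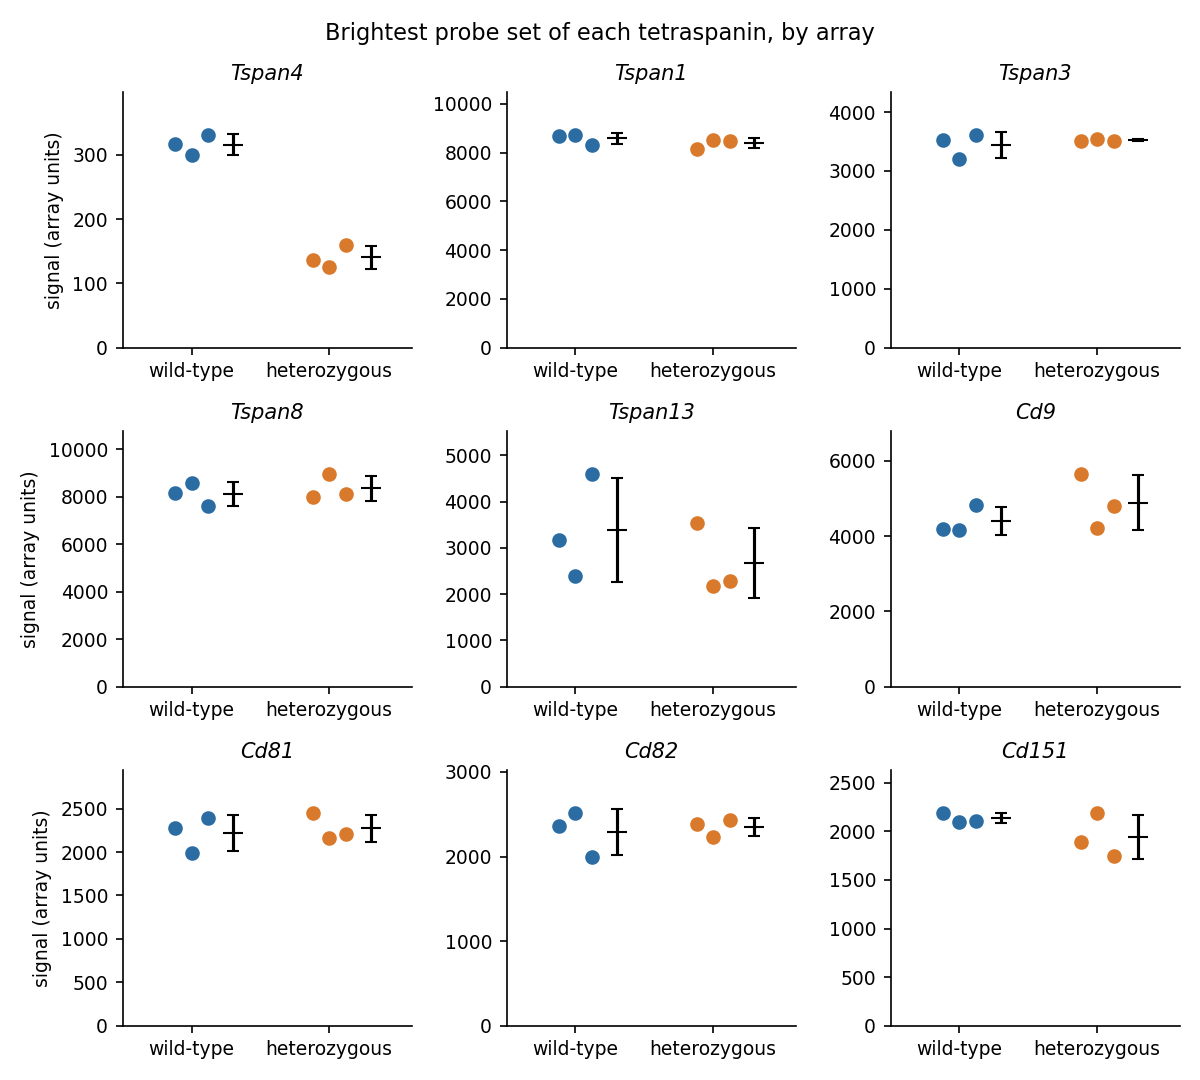
Signal (array units, axes from 0) of the brightest probe set of each of the 9 measured tetraspanins on each array, wild-type in blue and heterozygous in orange, with the mean and SD of the 3 arrays beside each group. The Tspan4 groups are apart, at 299.2 to 331.2 and 125.1 to 159.6, and the groups of the other 8 genes overlap.

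Among the members known for binding integrins, Cd151 encodes the partner of laminin-binding integrins in basal adhesions. Its brightest probe set, 1437670_x_at, read 2193.8, 2102.2 and 2111.7 on wild-type and 1893.5, 2191.0 and 1743.4 on heterozygous arrays. The heterozygous 2 array lay within the wild-type range and the other 2 below it, for a log2 difference of -0.14 (SE 0.11, 95% interval -0.39 to 0.11, limma adjusted p = 0.926). The 4 other tested probe sets gave log2 differences of 0.06, -0.07, 0.05 and -0.01. The sixth, 1420921_at, was below the filter at 26.0, 9.5 and 22.6 against 2.8, 8.1 and 5.7. Those readings do not overlap, but they stand at the bottom of the scale of the array and were not tested.

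Cd9 encodes a tetraspanin of epithelial and many other cells that is required on the egg for fusion with sperm and is a common exosome marker. It read 4194.4, 4174.3 and 4816.2 on wild-type and 5659.6, 4212.7 and 4787.6 on heterozygous arrays. The heterozygous 1 array was the high one and the rest overlapped. The log2 difference of 0.15 (SE 0.12, 95% interval -0.12 to 0.41, limma adjusted p = 0.926) became 0.03 without the heterozygous 1 array and 0.25 without the heterozygous 2 array.

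Cd81, a relative of Cd9 and a part of the B cell coreceptor, read 2274.6, 1987.5 and 2386.9 on wild-type arrays. On heterozygous arrays it read 2454.5, 2158.6 and 2202.7. These groups overlapped, and the log2 difference was 0.04 (SE 0.11, 95% interval -0.21 to 0.29, limma adjusted p = 0.985).

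Cd82, known as a suppressor of metastasis that slows cell migration, read 2356.7, 2519.5 and 1994.7 on wild-type and 2379.4, 2226.3 and 2436.0 on heterozygous arrays at 1416401_at. The low array was wild-type 3, and the log2 difference was 0.04 (SE 0.11, 95% interval -0.21 to 0.30, limma adjusted p = 0.985). Its second probe set, 1449611_at, read 115.3, 143.9 and 80.1 against 126.9, 151.2 and 29.0. A single low reading, on heterozygous 3, sets its difference of -0.30 (SE 0.45), and its 95% interval ran from -1.33 to 0.72.

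Among the members known from epithelium, Tspan1 encodes a tetraspanin of secretory and absorptive epithelia. Its brightest probe set, 1417957_a_at, read 8691.9, 8737.9 and 8327.6 on wild-type and 8165.5, 8530.2 and 8489.9 on heterozygous arrays. This was the tightest estimate of the set, with a log2 difference of -0.03 (SE 0.06, 95% interval -0.18 to 0.11, limma adjusted p = 0.972). The second probe set, 1417958_at, gave 0.05 (SE 0.10).

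Tspan8 encodes a tetraspanin of gut epithelium that is raised in colorectal and pancreatic tumours. Its brightest probe set, 1424649_a_at, read 8171.8, 8559.8 and 7591.1 on wild-type and 7982.0, 8968.1 and 8090.0 on heterozygous arrays. The groups overlapped, and the log2 difference was 0.04 (SE 0.08, 95% interval -0.14 to 0.22, limma adjusted p = 0.972). The 3 other probe sets gave 0.05, 0.14 and -0.22, each with groups that overlapped.

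Tspan3, a broadly expressed member, read 3521.1, 3197.2 and 3617.2 on wild-type and 3504.4, 3544.1 and 3516.4 on heterozygous arrays. The heterozygous values fell close together inside the wild-type range, and the log2 difference was 0.03 (SE 0.09, 95% interval -0.16 to 0.23, limma adjusted p = 0.982).

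Tspan13 is a member also called NET-6. Its brightest probe set had the largest SE among the brightest probe sets of the 8 genes other than Tspan4. Its probe set 1460239_at read 3178.4, 2387.9 and 4606.1 on wild-type and 3545.3, 2175.4 and 2294.8 on heterozygous arrays. The wild-type 3 array was the high one, and both genotypes had an array near the low end. The log2 difference was -0.33 (SE 0.25, 95% interval -0.89 to 0.23, limma adjusted p = 0.925), and 1418643_at gave -0.31 (SE 0.18, limma adjusted p = 0.912). Without wild-type 3 the difference at 1460239_at was -0.08, and without wild-type 2 or without heterozygous 1 it was -0.55. The summed signal of goblet cell markers was also highest on wild-type 3, at 49907.1 against 41755.7 to 43470.4 on the other 5 arrays. So were the sums of smooth muscle markers, at 51283.0 against 35975.8 to 44978.9, and of fibroblast markers, at 24061.8 against 18354.1 to 21750.3. Not every marker in these lists peaked there: Tff3 was highest on wild-type 2 and Acta2 on heterozygous 1. The sum of ileal enterocyte markers was lowest on wild-type 3, at 13401.6 against 15559.3 to 33463.0. The part of these in the Tspan13 values was not tested.

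Exact two-sided permutation tests of the difference in mean signal, which cannot go below p = 0.1 with 3 arrays against 3, gave p = 0.4 for Tspan1, 0.9 for Tspan3, 0.7 for Tspan8, 0.5 for Tspan13, 0.4 for Cd9, 0.8 for Cd81, 0.8 for Cd82 and 0.3 for Cd151.

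**Figure D2:**
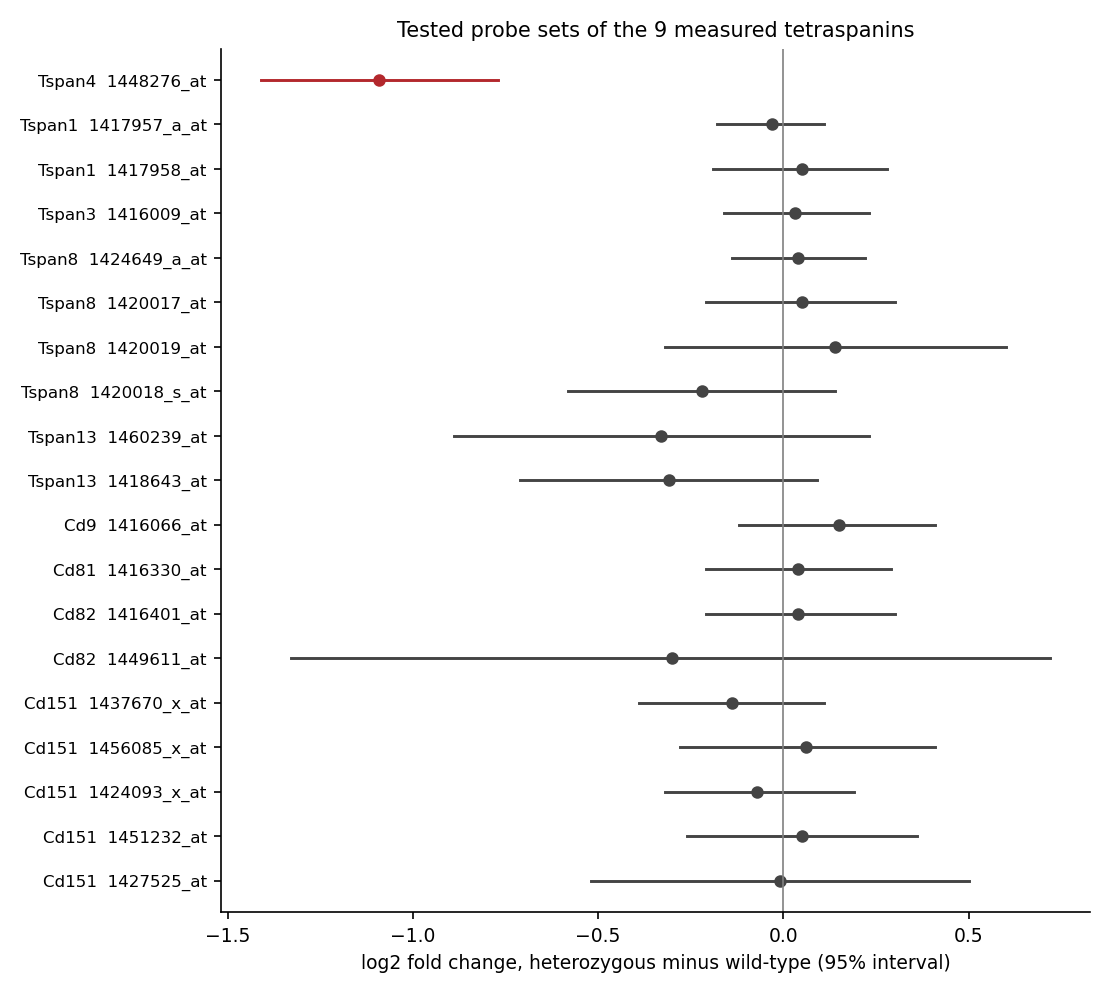
Log2 difference, heterozygous minus wild-type, with its 95% interval for the 19 tested probe sets of the 9 measured tetraspanins, Tspan4 in red as a description only. The intervals of the other 18 probe sets hold 0.

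Agreement between probe sets of 1 gene differed from gene to gene, and is described by Pearson correlations of log2 signal over the 6 arrays, which share their scaling. Tspan13 agreed best, with r = 0.91 between its probe sets and log2 differences of -0.33 and -0.31. The array-to-array swings of Tspan13 were thus read alike by 2 separate probe sets. Tspan1 had r = 0.48, with differences of opposite sign near 0, and Cd82 had r = 0.00.

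The 4 probe sets of Tspan8 gave 6 pairs with r from -0.61 to 0.66. The pair with the highest r was 1424649_a_at with 1420017_at, and the lowest was 1420019_at with 1420018_s_at. Those last probe sets parted on the heterozygous 3 array, where 1420019_at read its highest value, 1422.1, and 1420018_s_at its lowest, 428.8. The suffixes _s and _x mark probe sets that can match more than 1 transcript.

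The 5 tested probe sets of Cd151 gave 10 pairs with r from -0.72 to 0.81, of which 5 were negative. The lowest pair joined 1437670_x_at and 1456085_x_at, which again parted on heterozygous 3, at 1743.4 and 2427.7. Over all 19 pairs of tested probe sets, 8 had log2 differences of the same sign and the median r was 0.17. Most of these differences lie so close to 0 that their sign carries little.

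**Figure D3:**
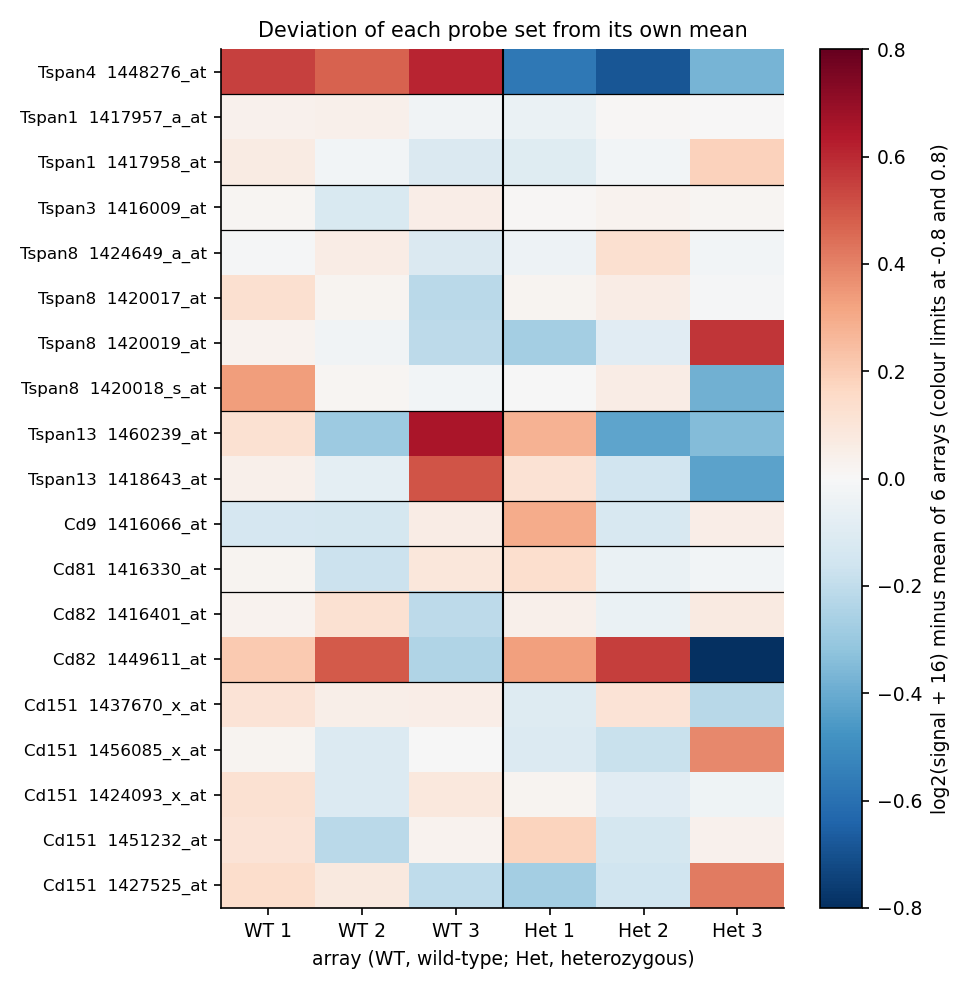
Deviation of log2(signal + 16) from the mean of each probe set over the 6 arrays (colour scale from -0.8 to 0.8, values past the ends drawn at the end colour), with the 19 tested probe sets in rows grouped by gene and the arrays in columns. The Tspan13 probe sets share the high wild-type 3 array, while probe sets of Tspan8 and Cd151 take opposite colours on heterozygous 3.

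The rest of the family gave 17 more genes with a probe set out of 21 listed, and 12 of these passed the filter. Of the 12, 4 had log2 differences above 0 and 8 below, around a median of -0.09, and 0 had a limma adjusted p under 0.05. With the 8 genes above this made 20 tetraspanins other than Tspan4. At the brightest probe sets of the 20, 9 differences were above and 11 below 0, the range was -0.33 to 0.40, and the smallest limma adjusted p was 0.917. An adjusted limma p under 0.05 was reached by 0 of all 8243 tested genes. An unadjusted limma p under 0.05 was reached by 0 of the 20, beside 440 of the 8243. The groups of all 20 overlapped at the brightest probe set, where 878 of the 8243 did not, and 0 of the 20 reached a log2 difference of 1 in size. With shares this small over all genes, these counts of 0 are not read as a trait of the family.

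The 3 of these 12 genes with the smallest p-values were Cd53, Tspan14 and Tspan33. Cd53, a tetraspanin of leukocytes, read 357.2, 303.3 and 633.0 on wild-type and 511.3, 466.5 and 676.1 on heterozygous arrays (log2 difference 0.40, SE 0.26, limma adjusted p = 0.917). The wild-type 3 array overlapped the heterozygous group. Beside Cd53, macrophage and dendritic cell markers summed to 4023.5 to 4447.2 on wild-type and 4565.8 to 6224.1 on heterozygous arrays, ranges that did not overlap. Of these 8 markers 7 were above 0, with a median of 0.33, and 0 had a limma adjusted p under 0.05. Their groups did not overlap for 4, Csf1r, Cd14, Itgax and Fcer1g, and all 4 were higher on the heterozygous arrays, beside 878 of all 8243 genes with groups apart, 460 of them higher. The other leukocyte lists were mixed or small. For T cell markers, the 3 tested of 7 had a median of 0.65. Cd3d gave 0.92 and Cd3g 0.65, with groups that overlapped, and Zap70 gave -1.64, with groups apart. Their sums were 592.2 to 728.7 on wild-type and 428.7 to 702.3 on heterozygous arrays. Zap70 made up most of the wild-type sums, at 392.3, 475.9 and 490.4. The 1 tested B cell marker, Ms4a1, gave -0.33, with values of 34.9 to 279.7 on wild-type arrays. The part of any of these lists in the Cd53 and Tspan4 values was not tested.

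Tspan14 and Tspan33 belong to the group of tetraspanins that escort the protease ADAM10, as do Tspan5, Tspan10, Tspan15 and Tspan17. Tspan14 read 356.2, 321.3 and 342.0 on wild-type and 491.1, 324.7 and 402.5 on heterozygous arrays (log2 difference 0.23, SE 0.16, limma adjusted p = 0.917). Tspan33 read 273.6, 231.4 and 476.3 against 315.6, 251.1 and 195.6 at its brightest probe set (-0.30, SE 0.26, limma adjusted p = 0.937). Its other tested probe sets gave -0.44 and -0.43. The high array was wild-type 3 at its brightest probe set, and the 3 Tspan33 probe sets correlated at 0.73 to 0.87. Tspan15 was level at 0.00 and Adam10 itself at -0.07 (SE 0.11, limma adjusted p = 0.966).

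Tspan17 was singled out after its values were seen, because its probe sets parted. At 1424334_at it read 192.2, 191.8 and 191.4 on wild-type and 130.2, 129.0 and 168.4 on heterozygous arrays, groups that did not overlap (log2 difference -0.40, SE 0.16, limma adjusted p = 0.814). Its brighter probe set 1455642_a_at read 270.8, 214.5 and 244.7 against 262.2, 185.2 and 208.0, which overlapped, with a difference of -0.15 (limma adjusted p = 0.947). The remaining genes of the 12 lay between -0.26 for Tspan5 and 0.25 for Tspan2. The family genes Tspan10, Tspan32, Cd37 and the photoreceptor genes Prph2 and Rom1 were below the filter.

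**Figure D4:**
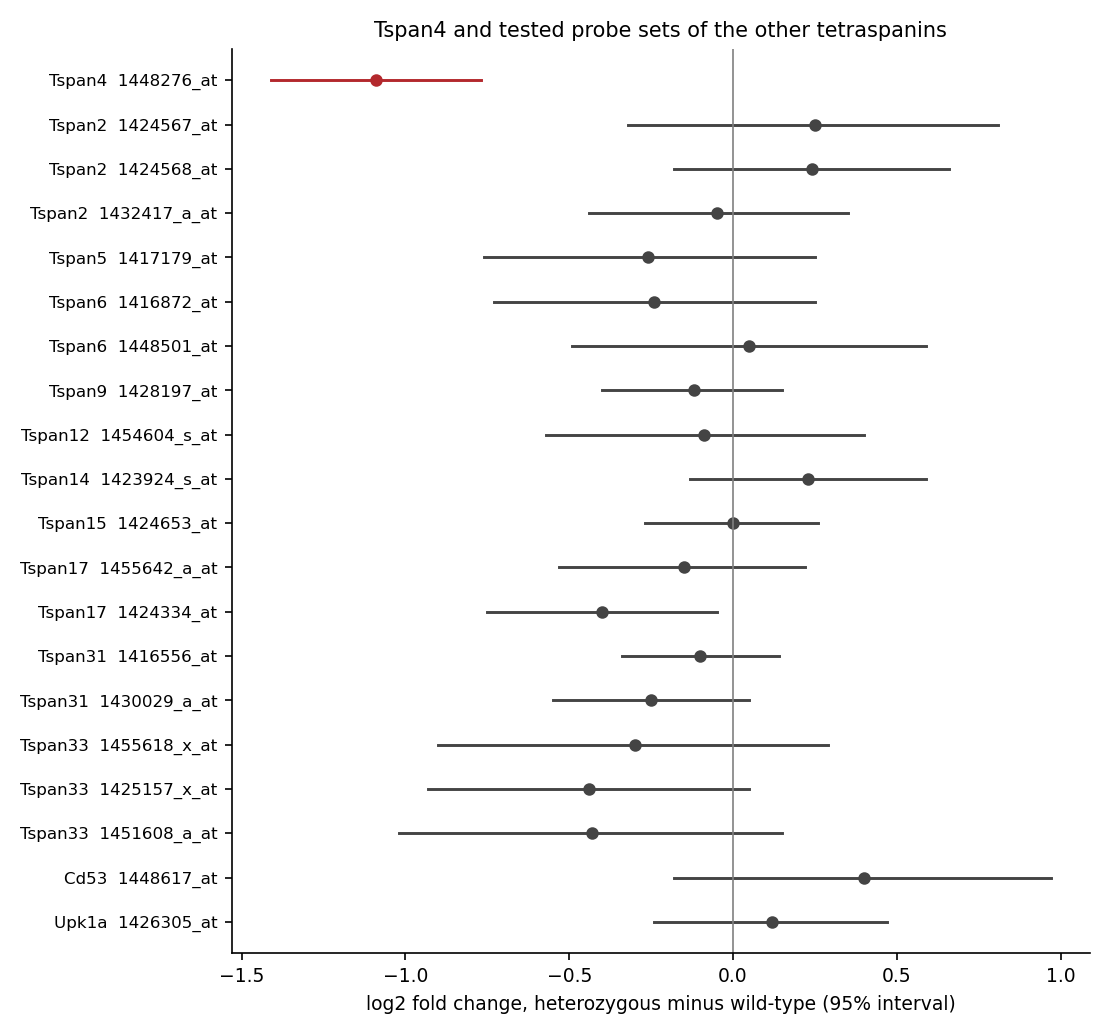
Log2 difference, heterozygous minus wild-type, with its 95% interval for the tested probe sets of 12 further tetraspanin genes, with Tspan4 in red as a description only. Of these intervals, that of Tspan17 1424334_at excludes 0 (-0.75 to -0.05), and no point other than Tspan4 lies beyond -0.44 or 0.40.

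The L6 family, of proteins with the same 4 membrane crossings that are unrelated in sequence to tetraspanins, had 4 tested genes out of 5 listed, 1 above and 3 below 0. The 1 above was Tm4sf20, at 704.9, 970.0 and 936.3 on wild-type and 969.7, 1503.6 and 1331.6 on heterozygous arrays. The lowest heterozygous array fell just inside the wild-type range, and the log2 difference was 0.53 (SE 0.19, limma adjusted p = 0.774). It was the 1 gene of these 4 with an unadjusted limma p under 0.05, beside 440 of all 8243 genes.

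Genes whose proteins bind tetraspanins, such as integrins, ADAM10 and protein kinase C, were divided about evenly around 0. Of 25 listed, 19 were tested, 10 above and 9 below 0 around a median of 0.02, and 0 passed the adjusted or the unadjusted limma threshold at their brightest probe set. Over all 8243 genes 0 passed the adjusted and 440 the unadjusted threshold, so little can be read from a 0 among 19. The smallest p-values belonged to Icam1 (0.45, SE 0.23, limma adjusted p = 0.911), Prkca (0.30, SE 0.16, limma adjusted p = 0.912) and Itgb4 (-0.24, SE 0.19, limma adjusted p = 0.926). Icam1, an adhesion receptor for leukocytes, read 108.9, 126.7 and 193.6 on wild-type and 236.6, 151.7 and 208.4 on heterozygous arrays.

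Itga3, the laminin-binding integrin subunit that pairs with CD151, was singled out after its values were seen. Its probe set 1421997_s_at read 201.2, 197.2 and 210.9 on wild-type and 101.2, 153.0 and 99.3 on heterozygous arrays (log2 difference -0.73, SE 0.19, limma adjusted p = 0.609). The groups were apart there. At its brightest probe set, 1455158_at, and at 1460305_at they overlapped, with a difference of -0.10 at each.

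Genes of exosome and migrasome formation had 18 tested members out of 21 listed, 8 above and 10 below 0 around a median of -0.03. At their brightest probe set 0 passed the adjusted or the unadjusted limma threshold, beside 0 and 440 of all 8243 genes. For 4 of the 18 the groups did not overlap, beside 878 of all 8243 genes. Tsg101 and Lamp2 were on the higher side, and Smpd3 and Arrdc1 on the lower. Lamp2 gave 0.12 there, while its other tested probe sets gave 0.01, -0.13 and -0.05, with groups that overlapped. The groups also overlapped at the other tested probe sets of Arrdc1, at -0.11 and -0.25. Smpd3, a neutral sphingomyelinase used in exosome release, read 153.8, 182.3 and 142.1 on wild-type and 130.6, 130.0 and 117.0 on heterozygous arrays (-0.30, SE 0.16, limma adjusted p = 0.912). Tsg101, a subunit of the ESCRT sorting machinery, read 745.0, 936.2 and 883.7 against 958.9, 1066.1 and 963.6 (0.22, SE 0.13, limma adjusted p = 0.912), and Arrdc1, an adaptor for budding at the cell surface, gave -0.17 (SE 0.11, limma adjusted p = 0.917).

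Tspan4 lies on chromosome 7, as do Cd151 and Cd81, whereas Mthfd1 lies on chromosome 12 with Tspan13. In the GRCm38.p6 gene table Polr2l, a subunit shared by the nuclear RNA polymerases, stands between Cd151 and Tspan4 and had no probe set here. The table separates Polr2l and Tspan4 by 82 bases. The stretch is printed because it holds the sequence shared upstream of the 1 member that the set is built around, from the RefSeq promoter windows of GRCm38.p6, at chr7:141475154-141475235 on the plus strand, with matches to CCGCCC, the reverse complement of GGGCGG, in capitals.
Tspan4-Polr2l intergenic: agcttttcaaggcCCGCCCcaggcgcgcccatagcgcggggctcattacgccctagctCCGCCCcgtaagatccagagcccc
Its bases are 68.3% G or C, with 8 CG pairs, and GGGCGG occurs 2 times on the minus strand and 0 times on the plus strand. Over all 32851 RefSeq windows of 300 bases, from 250 before to 50 after a start, 35.7% hold GGGCGG on either strand. For the listed tetraspanins 8 of 15 windows do. Counted by gene, 7 of the 10 have it in at least 1 window, and as some genes have several windows this is not comparable with the 35.7%. The median share of G or C over all windows is 52.7%, and the printed stretch is shorter than a window. TATAAA on either strand is in 13.6% of all windows and in 1 of the 15, that of Cd81. These matches are a description of letters, and the arrays measure nothing that binds there.

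None of the measured genes next to Tspan4 passed the adjusted limma threshold at any tested probe set, and neither did any of all 13576 tested probe sets. For 1 neighbouring probe set, of Ap2a2, the unadjusted limma p was under 0.05, beside 5.68% of all tested probe sets. On 1 side stand Cd151, described above, Cracr2b, a regulator of calcium entry, at -0.20 (SE 0.15, limma adjusted p = 0.925), and Pnpla2, the adipose triglyceride lipase, at 0.05 (SE 0.15, limma adjusted p = 0.985). On the other side stand Chid1, with 0.11 and 0.24 at its probe sets, then Ap2a2, and Muc5ac, a gel-forming mucin of the stomach, which was below the filter. Ap2a2, an adaptor subunit of clathrin-coated pits, had 4 tested probe sets that parted. At 1432007_s_at it read 260.0, 247.1 and 257.2 on wild-type and 160.9, 162.7 and 185.8 on heterozygous arrays, groups that were apart (log2 difference -0.55, SE 0.13, limma adjusted p = 0.607). At its brightest, 1435869_s_at, the groups also did not overlap, with a difference of -0.19 (SE 0.13, limma adjusted p = 0.917), and 1455482_at and 1452490_a_at gave 0.05 and 0.07. Groups did not overlap for 10.4% of all tested probe sets.

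**Figure D5:**
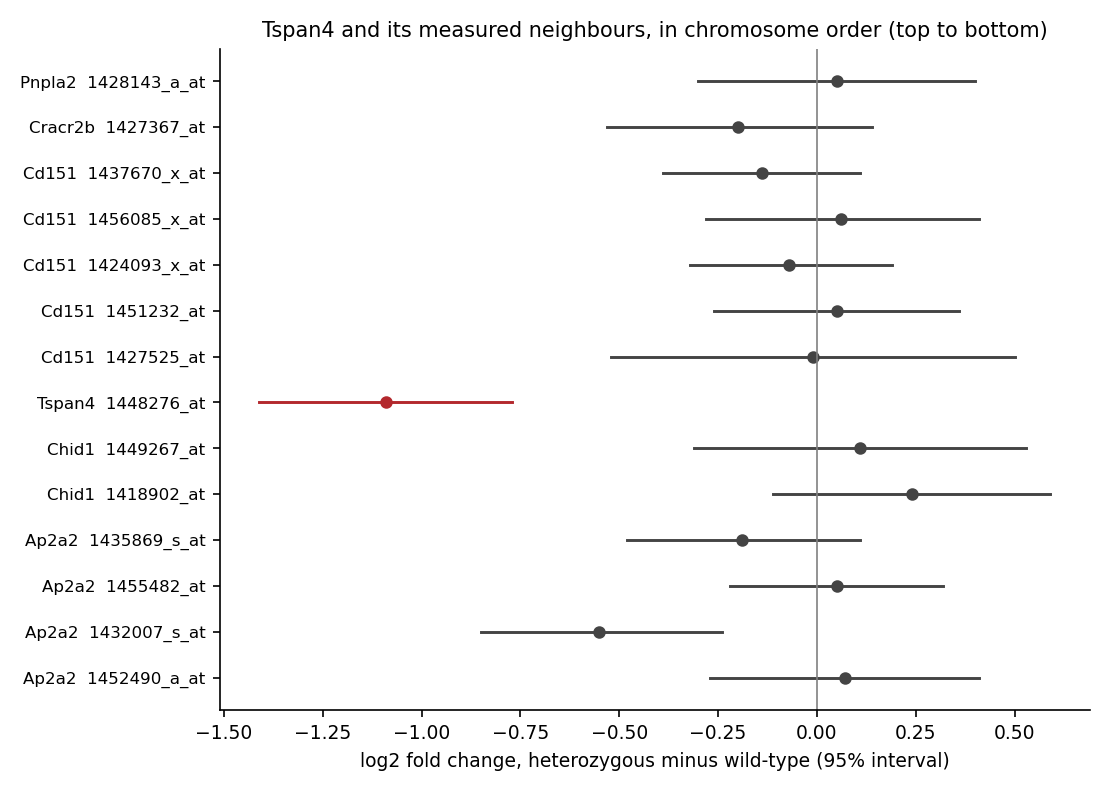
Log2 difference, heterozygous minus wild-type, with its 95% interval for the tested probe sets of Tspan4 (red, a description only) and of its nearest measured neighbours, in their order on chromosome 7 and not to distance. Of the neighbours' intervals, that of Ap2a2 1432007_s_at alone excludes 0.

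The genes whose log2 signal over the 6 arrays correlated best with Tspan4, out of 8242, were Slc39a1 (r = 0.990), Slc25a33 (0.988), B4gat1 (0.983), Pip4k2c (0.983) and Zswim1 (0.979). All 5 had heterozygous values below all wild-type values, but by less than Tspan4, with log2 differences of -0.17 to -0.26. Slc39a1, a zinc importer, read 1873.4, 1824.1 and 1894.3 on wild-type and 1646.5, 1597.8 and 1645.5 on heterozygous arrays. Such correlations over 6 arrays mainly rank genes by how cleanly the genotypes part. Taken over deviations from the genotype means, the best were Srgap2, Eri2, Stambp, Tln1 and Sntb2, at r of 0.989 to 0.994, and the groups of all 5 overlapped. Taking out both genotype means leaves even fewer independent values, and these genes were picked as the best of 8242. An r this high therefore needs no link to Tspan4, and none was tested. Among the 20 other tetraspanins the highest r with Tspan4 was 0.628 for Tspan9 over the arrays and 0.744 for Cd53 over the deviations. These too were picked as the highest and are a description. The lowest over the deviations was -0.841 for Cd151 at its brightest probe set, 1437670_x_at. That probe set had r = -0.72 over the 6 arrays with 1456085_x_at of the same gene, so the value does not speak for Cd151 as a whole.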

How the data were processed

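The deposited values are linear signal intensities, 1 per probe set and array, which the authors made with GCOS, per the submitters' processing notes. No version or settings of that software were at hand. The table holds no background or detection columns, and a check found each array scaled to the same mean after trimming 2% at each end. Control probe sets (64 of 22690) were left out. Platform annotation gave 1 symbol to 20380 probe sets, several to 691 and none to 1555, and names checked against the GRCm38.p6 gene table altered 0 symbols. Values entered as log2(signal + 16), which understates the change of dim genes. A filter removed probe sets whose mean signal fell under the 40th percentile (95.8). Genotypes were compared over the remaining 13576 with limma 3.58.1 in R 4.3.3 (lmFit, eBayes with a variance trend, two-sided, Benjamini-Hochberg, threshold 0.05), a step tested on simulated data. A gene stands by its brightest probe set, that with the highest mean over the 6 arrays.

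The members, lists, markers and tests were chosen with earlier results of these data known. The text names all members, Mthfd1, from each other list the genes with an unadjusted p under 0.05 at the brightest probe set and otherwise the 3 with the smallest p, the 3 measured genes on each side of Tspan4, and the 5 best correlated by each measure. Alternatives covered normalization, pseudocount, filter, variance model, array weights, a replicate block, each array left out, thresholds and the choice of probe set. Probe sequences and protein sequences were not used here.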

Additional observations from a re-analysis of the deposited data

How the results depend on the processing

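The count of other listed tetraspanins past the threshold was 0 under every alternative run, including an adjusted p under 0.1, an unadjusted p under 0.05 and 1 probe set a gene, and it was 0 with the replicate block, where Tspan4 stood at -1.09 (SE 0.14). The labels do not say whether equal numbers pair the mice. Same-numbered arrays deviated together at r of -0.124, 0.504 and 0.050. The 0.504, of the replicates numbered 2, was the highest of any wild-type and heterozygous pair, followed by 0.420 for wild-type 3 with heterozygous 1. These values do not settle whether mice were matched. Over all probe sets the limma count moved from 0 to 8 with robust variance and to 4 with array weights, and leaving out 1 array gave 0 to 38, with 38 without heterozygous 1 and 2 without wild-type 3. Tspan4 ran from -1.09 to -1.07 over the other scalings, no filter, the variance models and array weights, was -1.17 with a pseudocount of 1 and -0.89 with 64, and -1.17 to -1.02 with 1 array left out. The 60th percentile filter removes it and gives no value.

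Several differences near 0 changed sign. By probe set, Tspan1 went to 0.05 (0.01 for the mean of its probe sets), Tspan8 to -0.22, Cd82 to -0.30 (mean -0.13) and Cd151 to 0.06 and 0.05. With 1 array left out, Tspan3 ran from -0.02 to 0.07, Tspan8 from -0.01 to 0.08, Cd81 from -0.04 to 0.09 and Cd82 from -0.05 to 0.11. Tspan1 (-0.05 to -0.01), Tspan13 (-0.55 to -0.08), Cd9 (0.03 to 0.25) and Cd151 (-0.23 to -0.07) kept their sign there. The cause was not tested.

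With 3 arrays a genotype and no detection values, dim probe sets limit what can be said, and scaling to a common mean hides any change in total RNA.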

Other observations

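How far a single probe set speaks for a gene was counted after the Itga3, Tspan17 and Ap2a2 values were seen. In this comparison 30 tested probe sets with 1 symbol, Tspan4 among them, had groups that did not overlap and a difference of at least 2-fold on the log2(signal + 16) scale. For 18 of the 30 the gene had no other tested probe set. The other 12, from 10 genes, had at least 1 more, and for 6 of the 12 another probe set of the gene also had groups apart on the same side. Groups were apart on either side for 10.4% of all tested probe sets. That share is for single probe sets, whereas the 6 count any further probe set of the gene, so they are not alike. As 12 probe sets come from 10 genes, some share a gene with another of the 12, itself picked for groups apart. The 12 were picked by large differences, so these counts are a description and give no rate of agreement. The brightest other probe set had the same sign for 9 of the 12, with a median of 0.76 in that direction.

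Anxa2, an annexin found in exosomes, was also chosen after its values were seen. At 1437692_x_at it read 153.1, 172.5 and 153.0 on wild-type and 61.6, 100.8 and 103.0 on heterozygous arrays (log2 difference -0.77, SE 0.21, limma adjusted p = 0.643), whereas its brightest probe set, 1419091_a_at, gave -0.03 (SE 0.17, limma adjusted p = 0.994).

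Counted over the 20 tetraspanins other than Tspan4, the highest of the 6 values was on wild-type 1 for 15.0% (16.1% of all tested genes), on wild-type 2 for 25.0% (15.0%) and on wild-type 3 for 30.0% (23.9%). It was on heterozygous 1 for 20.0% (13.9%), on heterozygous 2 for 5.0% (10.3%) and on heterozygous 3 for 5.0% (20.8%), where 5.0% is 1 gene.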
